A study of Homo sapiens with 36 samples.

Results

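A set of 241 genomic regions, of 204358 in all, had an ATAC-seq peak in all 6 control siRNA libraries of 1 experiment in BT549 cells. None of the 6 libraries with siRNA against the transcription factor GATA6 had a peak there. Both sets held libraries in vehicle and libraries after dexamethasone. ATAC-seq uses a transposase that cuts open chromatin and tags the ends, and a peak is a stretch where a library's tags pile up above its own background. In a bulk sample, a region open in fewer cells and a region less open in every cell cannot be told apart. Overlapping peaks of the 12 libraries of the GATA6 experiment, on chromosomes 1 to 22 and X, were merged into the 204358 regions, and a library was said to hold a region when one of its peaks overlapped it by at least 1 bp. The 241 regions were those held by 3 of 3 siCtl libraries in each setting and by 0 of 3 siGATA6 libraries in each setting. These values chose the regions, so they are given as a description and no test was made on them.

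GATA6 is a zinc-finger transcription factor of the GATA family, best known for its part in the formation of endoderm, gut, heart and pancreas. Members of the family can bind their sequence, in which the letters GATA are followed by A or G, in closed chromatin and help to open it, and are therefore called pioneer factors. Stretches opened in this way are often enhancers, which lie far from gene starts and act on promoters at a distance. Keeping them open commonly needs SWI/SNF, a remodelling complex that moves nucleosomes with 1 of a pair of ATPases, BRG1 (gene SMARCA4) or BRM (gene SMARCA2).

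All cells were BT549, a mesenchymal triple-negative breast cancer line, that is, without oestrogen receptor, progesterone receptor and amplified HER2. In the GATA6 experiment, cells had siRNA against GATA6 (siGATA6) or control siRNA (siCtl) for 72 h, each with 500 nM dexamethasone (DEX, an agonist of the glucocorticoid receptor) for 2 h or with vehicle, with 3 libraries in each of the 4 groups. In a second experiment, siRNA against BRG1 and BRM together (siBRG1_siBRM) was set against control siRNA (siCtl_only), with 4 libraries each. In the third, 10 µM BRM014, an inhibitor of both ATPases, was given for 4 h and set against its solvent DMSO, without DEX (BRM014 and DMSO) or with 500 nM DEX for 4 h (DEX_BRM014 and DEX_DMSO), again with 4 libraries each. All of it is therefore 1 cell line. The siRNA against GATA6 was a pool of several sequences, the duration of the knockdown of BRG1 and BRM is not given in the sources used here, and peaks do not show how far any of the 3 proteins was depleted.

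Each library had its own peak list, of 37184 to 131423 peaks. The lowest pileup that was called as a peak was 4 or 5 overlapping tags in the GATA6 experiment and 3 or 4 in the others, and the background under the peaks was also deeper in the GATA6 experiment (0.492 to 0.677 tags, against 0.235 to 0.335 in the others). These are the lowest values in whole lists, and a peak needs more tags where the local background is high: inside DNM3, a member named here after its values were seen, 19 tags in 1 siCtl library gave a -log10 q of only 3.22. A region without a peak therefore need not be closed, and its pileup is not known. The lists fitted the labelled cell type in part: 6 of 7 mesenchymal markers, such as VIM and AXL, had a peak within 1 kb of a gene end in all 36 libraries, and ESR1 and PGR, the hormone receptor genes, had one in none. Of the luminal markers ERBB2 and FOXA1 had such a peak in all 36 libraries, as had 5 of 12 leukocyte, 0 of 11 endothelial and 4 of 10 neural markers, so a peak at a gene end was not specific to the genes a cell type uses.

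No member of the set overlapped a promoter of a protein-coding gene among those tabulated for build GRCh38.p14 by RefSeq, a table that is not complete. Both members that overlapped a tabulated promoter lay at long non-coding RNA genes on chromosome 12, LINC02384 and LOC105369956, and they are named for that reason, after their values were seen. The region at LINC02384, chr12:68451358-68452014, covered all 300 bases of the promoter (250 before the start and 50 after it, chr12:68451435-68451734, minus strand, shown 5′ to 3′), and the region at LOC105369956 covered 27. The LINC02384 promoter is printed as the clearest case of sequence inside a lost region, with capitals for matches to the GATA motif and the AP-1 motif.

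LINC02384: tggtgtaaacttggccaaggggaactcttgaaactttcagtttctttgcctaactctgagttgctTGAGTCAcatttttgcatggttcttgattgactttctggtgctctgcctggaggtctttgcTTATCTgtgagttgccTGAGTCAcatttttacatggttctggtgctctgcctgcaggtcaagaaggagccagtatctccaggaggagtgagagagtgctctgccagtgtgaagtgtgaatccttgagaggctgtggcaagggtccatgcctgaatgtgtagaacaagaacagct

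The GATA motif was searched as the letters GATA with A or T before and A or G after them, and the AP-1 motif as TGANTCA, each on both strands, with no overlap between the 2 motifs in this sequence. The promoter held 1 GATA match, TTATCT on the printed strand, and 2 AP-1 matches, both TGAGTCA. Among 34961 tabulated promoters of the same length, 24.9% held a GATA match and 7.68% an AP-1 match, so the first is common in any such window. The TEAD motif GGAATG, found in 14.0% of promoters, was not in it, and the LOC105369956 promoter held none of the 3. The LINC02384 region had no peak in the 6 siGATA6 libraries. Its pileups were 19, 17 and 19 in siCtl with DEX and 22, 16 and 20 in siCtl with vehicle. It was held by 0 of 4 siBRG1_siBRM and 3 of 4 siCtl_only libraries, by 0 of 4 BRM014 and 4 of 4 DMSO libraries, and by 0 of 4 DEX_BRM014 and 4 of 4 DEX_DMSO libraries.

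The set is a small part of what control cells held. Of 78268 regions held by all 6 siCtl libraries, 71797 were held by all 6 siGATA6 libraries as well, and 241 by none. Just outside the rule lay 209 regions held by 1 of the 6 siGATA6 libraries and 253 held by 5 of the 6 siCtl and by no siGATA6 library. Single comparisons lost more. In vehicle 1345 regions were lost (0.658% of all regions) and with DEX 1221 (0.597%), and the 241 common to both are 0.118% of all regions. The reverse pattern, held by all 6 siGATA6 and by no siCtl library, was seen at 48 regions.

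Most members were weak peaks. Ranked by the authors' -log10 q within each library, with 0% for the strongest peak of a list, the members had a mean rank between 25.2% and 89.8% over the 6 siCtl libraries, with a median of 63.9%, against a median of 31.5% for the 71797 regions held by all 12 libraries. The authors' fold enrichment at the summit had a median of 6.73 in the members and 14.0 in the kept regions, the -log10 q medians were 9.60 and 35.7, and the width medians 263 and 307 bp. To set the members beside peaks of like strength, the 11582 kept regions whose mean rank lay between the lower and the upper quartile of the members' ranks, 54.5% and 74.3%, are used from here on; their median fold was 7.20 and their median width 233 bp.

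**Figure D1:**
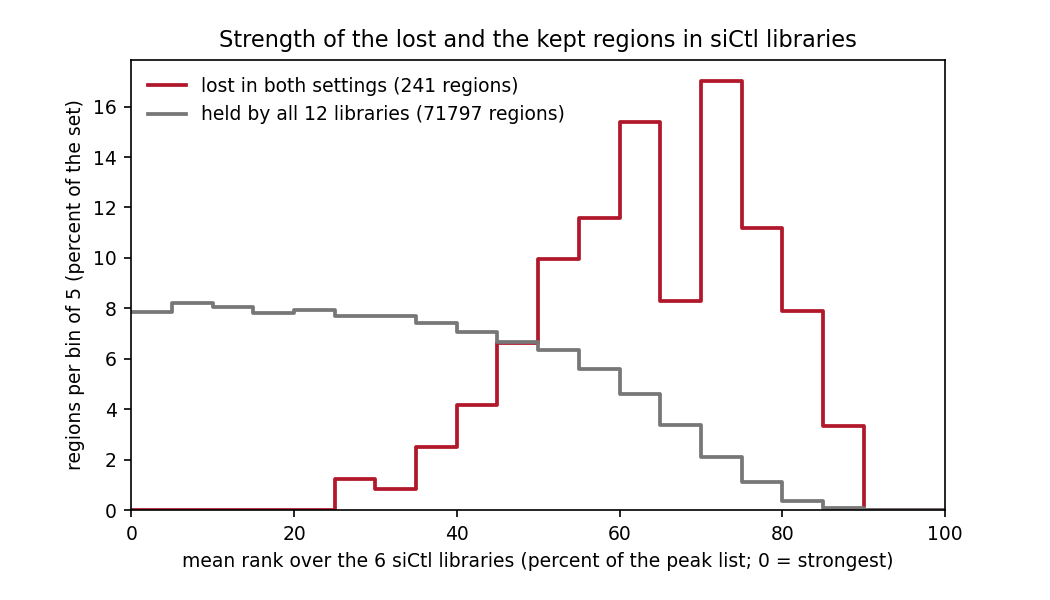
Mean rank of the regions over the 6 siCtl libraries, in percent of the peak list with 0 for the strongest peak (x axis), and the percent of the regions of a set in each bin (y axis). The 241 lost regions, in red, lie to the right of the 71797 regions held by all 12 libraries, in grey, with medians of 63.9% and 31.5%.

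The pileup at the summit, the number of tags stacked there, was recovered from the fold and p of each peak. Its median over the 241 members was 11, 12 and 15 in the siCtl libraries with DEX, against 14, 14 and 18 in those with vehicle. Kept regions of like rank had medians of 12, 15 and 17 with DEX and 14, 14 and 17 with vehicle. Single members ranged from 4 to 144. A pileup of at least 20 in every siCtl library was found at 22 members, one of at least 10 at 104, and one under 10 in every siCtl library at 2.

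The 12 members of best rank are led by a region inside CEP83, which encodes a protein of the distal appendages of the centriole, at chr12:94326706-94327096. It had no peak in the 6 siGATA6 libraries, against pileups of 26, 36 and 41 in siCtl with DEX and of 43, 45 and 41 in siCtl with vehicle. In the other experiments its pileup was 3 in 1 siBRG1_siBRM library, with no peak in the other 3, against 18, 28, 14 and 18 in siCtl_only. No BRM014 library held it, against pileups of 11, 13, 8 and 9 in DMSO. All 6 siCtl libraries called the region at 26 tags or more, and 1 of 12 libraries with an ATPase targeted called it at all.

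The second region lay 84.4 kb from HAS2, a synthase of the matrix polymer hyaluronan, at chr8:121527400-121527670. Its pileups were the highest of the set, 66, 82 and 144 in siCtl with DEX and 80, 67 and 124 in siCtl with vehicle, and no siGATA6 library had a peak. The fold enrichment there was only 5.90 to 10.1, against 17.0 to 23.3 at CEP83, so the authors' local background was high at HAS2. In the second experiment the HAS2 region had a pileup of 16 in 1 siBRG1_siBRM library and none in the other 3, against 57, 83, 60 and 50 in siCtl_only. With the inhibitor 2 BRM014 libraries held it at 10 and 15, against 73, 77, 64 and 76 in all 4 DMSO libraries. With DEX it was held by no DEX_BRM014 library, against pileups of 61, 52, 59 and 55 in DEX_DMSO.

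A region 1.87 kb from KRT19, a keratin of simple and luminal epithelium, at chr17:41530176-41530477, was the fourth. It had no peak with siGATA6, against pileups of 23, 40 and 31 in siCtl with DEX and of 37, 50 and 36 in siCtl with vehicle. It was absent from all 12 libraries with siBRG1_siBRM, BRM014 or DEX_BRM014, against pileups of 8, 24, 17 and 20 in siCtl_only, of 8, 15, 12 and 13 in DMSO and of 8, 4, 5 and 10 in DEX_DMSO. The same region is 11.3 kb from KRT15, a keratin of basal epithelium. It is 83.0 kb from another member of the set, chr17:41446863-41447197 near KRT38 in the hair keratin cluster, so that KRT35 and KRT36, both hair keratins, had a member on each side within 50 kb.

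The third region, at chr9:80651239-80651517, lay 924 kb from the nearest protein-coding gene, TLE4, a co-repressor of the Groucho family. Its pileups were 44, 47 and 40 in siCtl with DEX and 63, 63 and 68 in siCtl with vehicle. In the siBRG1_siBRM libraries it was 10 in one, 6 in another and uncalled in 2, against 24, 42, 34 and 24 in siCtl_only. The values with vehicle and those with DEX did not overlap, although no siGATA6 library called the region in either setting.

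KCNT2, a sodium-activated potassium channel, was the nearest gene, at 635 kb, of the only member held by all 24 libraries of the other 2 experiments, chr1:195590661-195591058. It had no peak with siGATA6, against pileups of 26, 28 and 39 in siCtl with DEX and of 42, 32 and 56 in siCtl with vehicle. Its pileups were 21, 20, 11 and 12 in siBRG1_siBRM, against 31, 45, 30 and 30 in siCtl_only, and 22, 27, 19 and 11 in BRM014, against 25, 33, 25 and 34 in DMSO. The siBRG1_siBRM and siCtl_only values did not overlap, so the region was called throughout but at lower pileups, whereas the BRM014 and DMSO values overlapped.

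The other 7 of the 12 gave the same picture with few exceptions. Of them, the regions nearest PSAT1 (serine synthesis, 229 kb), PCDH9 (a protocadherin, 1010 kb), MGAT4C (a glycosyltransferase, 281 kb) and the uncharacterised LOC124907854 (129 kb), were held by no BRM014 and all 4 DMSO libraries. The regions near PSAT1, PCDH9 and LOC124907854 were also held by no siBRG1_siBRM library and all 4 siCtl_only libraries, and the region near MGAT4C by 1 and 4. The region inside USP54, of the ubiquitin-specific peptidase family, was held by 0 of 4 siBRG1_siBRM and 4 of 4 siCtl_only libraries but by 2 of 4 BRM014 and 4 of 4 DMSO libraries. Near TBL1XR1, a subunit of the NCoR corepressor complex (543 kb), 1 siBRG1_siBRM and 1 BRM014 library kept the peak, and near PMFBP1, a sperm protein (61.5 kb), 2 of each did, against 4 of 4 controls in every case. Of the 12 regions, 2 lay inside a gene and 10 outside.

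**Figure D2:**
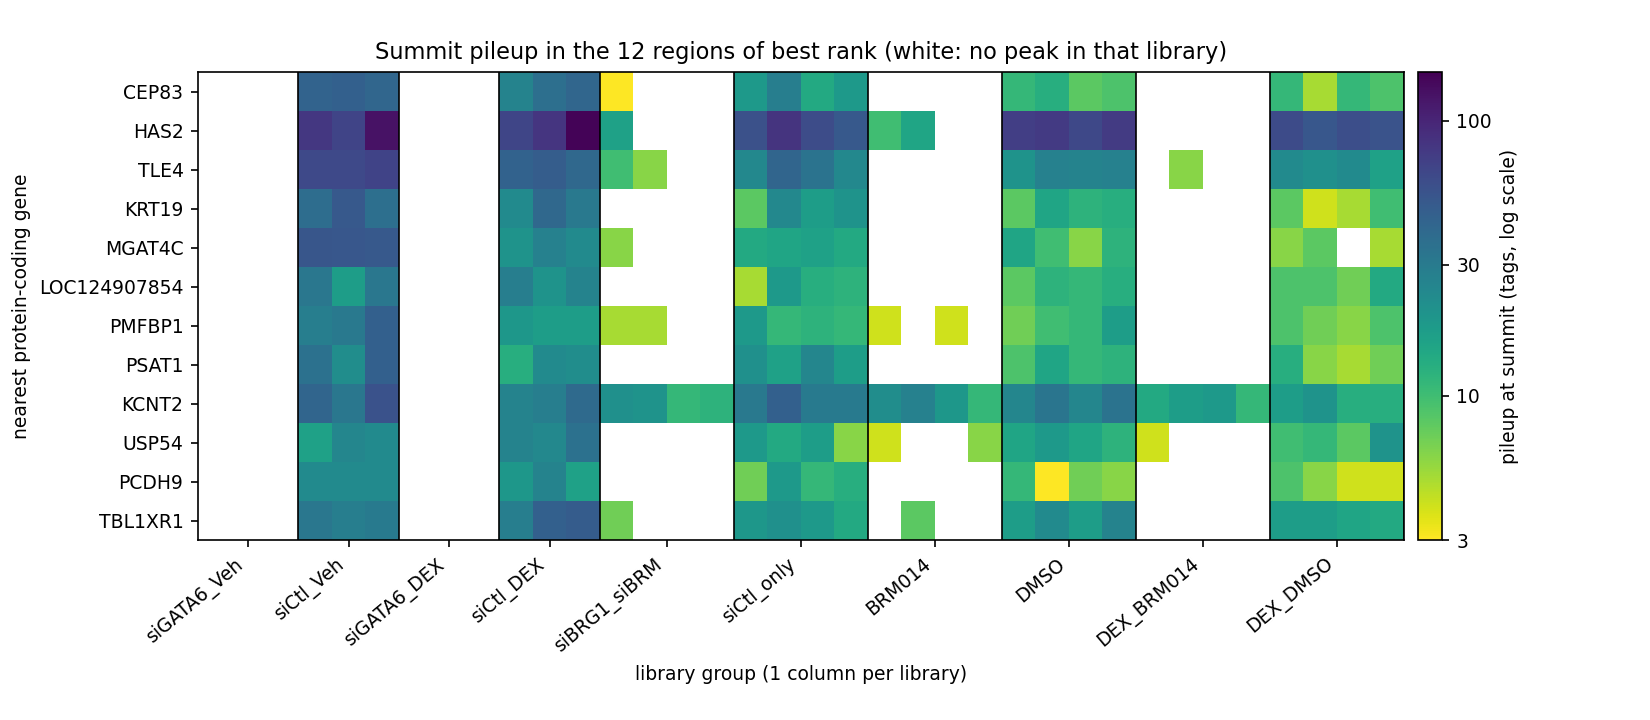
Pileup at the summit (colour, log scale, in tags) for the 12 members of best rank (rows, named by the nearest protein-coding gene) in every library (columns, grouped by treatment); white marks a library with no peak. The siGATA6 columns are white by the rule, the siBRG1_siBRM, BRM014 and DEX_BRM014 columns are mostly white, and the KCNT2 row alone is filled in all 24 libraries of the other experiments.

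Whether these regions also held fewer peaks when the SWI/SNF ATPases were targeted was asked in the libraries that the rule did not use. In those with siBRG1_siBRM, 14.1%, 5.39%, 1.66% and 3.32% of the 241 members held a peak, against 65.1%, 65.6%, 58.1% and 55.2% in siCtl_only. The means were 6.12 ± 5.54% and 61.0 ± 5.17% (SD, n = 4 each), a difference of -54.9 percentage points. The groups did not overlap (two-sided exact permutation p = 0.0286, the smallest that 4 against 4 libraries allow, and 0.0381 after Benjamini-Hochberg adjustment over 8 tests). With an equal number of best peaks taken from every library the difference was -5.50 points, in the same direction (exact permutation p = 0.0286). Such p-values measure the spread between these libraries, which the titles number as biological replicates.

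Peaks were fewer everywhere in these libraries, so kept regions of like rank were scored in the same way. They held a peak in 20.8 ± 10.1% of cases with siBRG1_siBRM and in 61.0 ± 4.51% with siCtl_only, the same share as the members in controls. The members' share minus that of the kept regions was -14.6 ± 5.80 points with siBRG1_siBRM, against a mean near 0 with an SD of 2.94 in siCtl_only (exact permutation p = 0.0286, adjusted 0.0381). In the lists as called, the members were thus lost more often than these kept regions. The kept regions had been required to hold a peak in 6 more libraries than the members, and whether this sets part of the gap was not tested. The siBRG1_siBRM library with the most peaks, 66607, held the largest share of members, 14.1%, and the one with the fewest, 37184, the smallest, 1.66%. With an equal number of best peaks per library the gap was -11.6 points. The members' own share differed by -5.50 points in that setting, so the kept regions' share was higher with siBRG1_siBRM than with siCtl_only. The background level was 0.259 to 0.309 with siBRG1_siBRM and 0.242 to 0.335 with siCtl_only, and its part in the shares was not tested.

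Counted region by region, 60 of the 241 members (24.9%) were held by all 4 siCtl_only and by no siBRG1_siBRM library. That pattern was met by 3.99% of all 204358 regions, by 9.75% of the 78268 that all 6 siCtl libraries held, and by 8.04% of the kept regions of like rank. Of the 84 members that all 4 siCtl_only libraries held, 71.4% had no peak in any siBRG1_siBRM library, against 32.1% of the 2902 such kept regions. Fewer siBRG1_siBRM than siCtl_only libraries held 201 members, and more held 3. The same counts over other regions are not given here, and siBRG1_siBRM lists were shorter (37184 to 66607 peaks, against 81639 to 87609). No siBRG1_siBRM library held 202 members (83.8%), against 54.5% of kept regions of like rank and 27.4% of regions held by all 6 siCtl libraries, and 34 of the 202 were held by no siCtl_only library either.

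**Figure D3:**
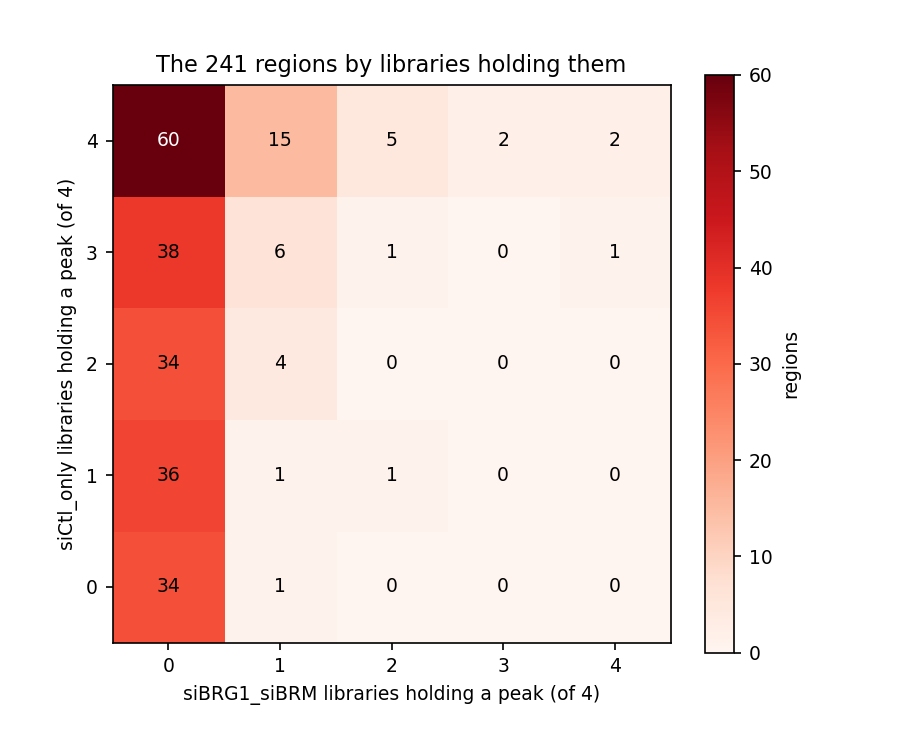
The 241 members by the number of siBRG1_siBRM libraries (x axis, of 4) and of siCtl_only libraries (y axis, of 4) holding a peak; each cell gives the number of regions, also shown by colour. The top left cell holds the 60 regions with a peak in all 4 siCtl_only and no siBRG1_siBRM library, and 2 regions had a peak in all 8.

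By rank, the lost regions were led by those near KRT19, LOC124907854 and PSAT1, inside USP54, and near PCDH9 and GRIN2A, a subunit of the NMDA receptor, at chr16:9706276-9706501. The last had no peak with siBRG1_siBRM, against pileups of 6, 16, 11 and 14 in siCtl_only. All 8 libraries held 2 members, the region near KCNT2 and one inside BNC2, a zinc-finger protein, at chr9:16715396-16715816. They also held 198 of the 11582 kept regions of like rank, so this pattern was rare there too. The BNC2 region had pileups of 23, 11, 10 and 9 with siBRG1_siBRM, against 18, 26, 21 and 13 with siCtl_only, which overlap.

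The 3 members held by more siBRG1_siBRM than siCtl_only libraries are named after their values were seen. They lay inside TRIM16 (4 against 3 libraries), near METTL4 (2 against 1) and inside SPSB1 at chr1:9314284-9314393 (1 against 0). The region in TRIM16, chr17:15643262-15643422, had pileups of 33, 24, 16 and 14 with siBRG1_siBRM, against 33, 28 and 25 in 3 siCtl_only libraries. TRIM16 has a near-identical copy nearby, so how the authors placed reads there is uncertain.

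The inhibitor gave a like result within 4 h. With BRM014, 5.81%, 8.30%, 5.81% and 2.49% of the members held a peak, against 57.3%, 67.6%, 60.2% and 69.7% in DMSO. The means were 5.60 ± 2.38% and 63.7 ± 5.93% (SD, n = 4 each), a difference of -58.1 points with no overlap (exact permutation p = 0.0286, adjusted 0.0381). It was -5.19 points with an equal number of best peaks per library. Kept regions of like rank held a peak in 22.1 ± 9.28% and 69.7 ± 5.57% of cases. The gap between members and kept regions was -16.5 points with BRM014 and -5.96 points in DMSO, a difference of -10.6 points that did not pass the threshold (exact permutation p = 0.0571, adjusted 0.0653). It passed where equal numbers of best peaks were taken (-14.0 points), with a 50% overlap (-9.67) and against all kept regions (-24.2). With equal numbers the members' own share differed by only -5.19 points, so the kept regions' share was higher with BRM014 than in DMSO.

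In all, 74 members (30.7%) were held by 4 of 4 DMSO and 0 of 4 BRM014 libraries, where 7.53% of all regions, 17.2% of those held by all 6 siCtl libraries and 16.8% of kept regions of like rank were. Of the 97 members that every DMSO library held, 76.3% had no peak in any BRM014 library, against 43.5% of such kept regions. Fewer BRM014 than DMSO libraries held 209 members, and more held 1, the region inside SPSB1, with a peak in 4 of 4 BRM014 and 0 of 4 DMSO libraries. The same counts over other regions are not given here, and BRM014 lists were shorter (41026 to 60995 peaks, against 88348 to 98220). Both by BRM014 and by siBRG1_siBRM 32 members (13.3%) were lost, where 2.32% of all regions, 5.91% of those held by all 6 siCtl libraries and 2.72% of kept regions of like rank were. At least 1 of the 2 treatments lost 102 members, and the share of other regions so lost is not given here. The 2 treatments have separate controls.

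With DEX present in both groups, DEX_BRM014 libraries held 5.81%, 4.56%, 2.49% and 2.90% of the members, against 52.3%, 51.9%, 43.6% and 49.4% in DEX_DMSO. The means were 3.94 ± 1.53% and 49.3 ± 4.01% (SD, n = 4 each), a difference of -45.3 points (exact permutation p = 0.0286, adjusted 0.0381). It was -1.87 points with an equal number of best peaks per library. Members lost in this comparison numbered 57 (23.7%), where 8.31% of all regions, 16.9% of those held by all 6 siCtl libraries and 16.3% of kept regions of like rank were. They made up 85.1% of the 67 members that all DEX_DMSO libraries held, against 41.8% of such kept regions. The gap between members and kept regions of like rank was -20.5 points in DEX_BRM014 and -18.7 points in DEX_DMSO (difference -1.81, exact permutation p = 0.4). It depended on the setting, at 4.94 points with a -log10 q of at least 5 and 4.22 with a 50% overlap (exact permutation p = 0.143 and 0.0857), and at -10.5 with an equal number of best peaks and -13.5 against all kept regions (p = 0.0286 in both exact permutation tests), so no direction is given.

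**Figure D4:**
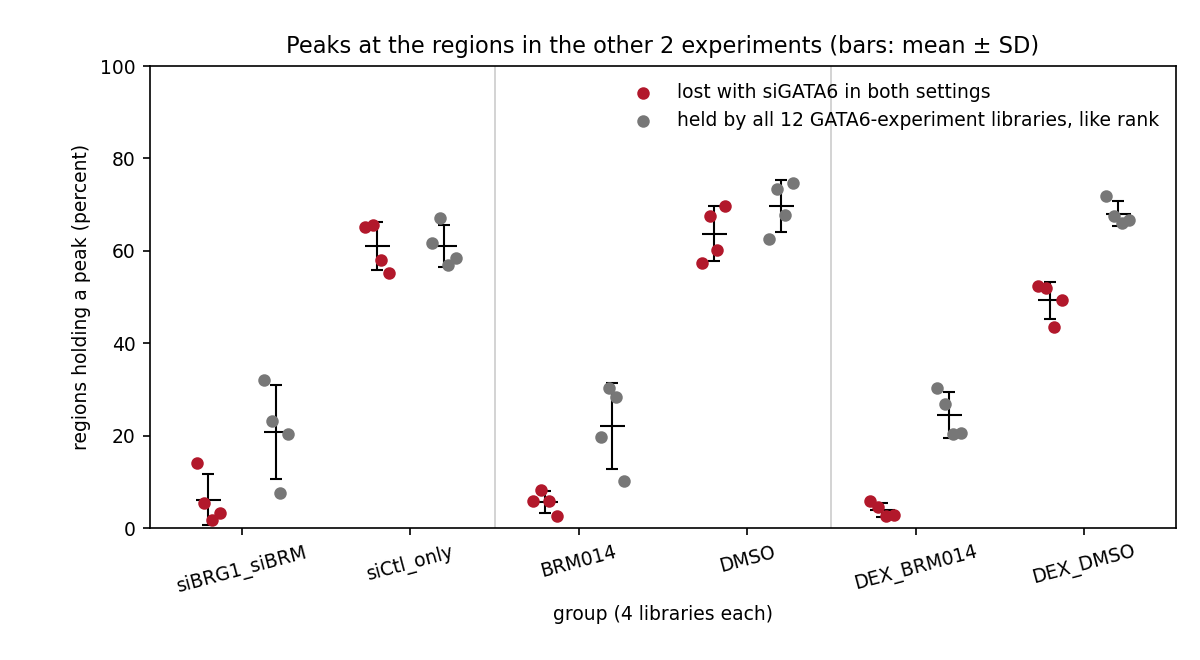
Percent of regions holding a peak (y axis) in each library of the 6 groups of the other experiments (x axis, 4 libraries each), for the 241 members in red and for the 11582 kept regions of like rank in grey; bars give mean ± SD. The members lie between 1.66% and 14.1% in siBRG1_siBRM, BRM014 and DEX_BRM014 libraries, and between 43.6% and 69.7% in the controls.

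DEX itself went with fewer peaks at the members, even though the rule had asked for a peak in control cells with and without it. The share was 49.3 ± 4.01% in DEX_DMSO and 63.7 ± 5.93% in DMSO (SD, n = 4 each), a difference of -14.4 points with no overlap (exact permutation p = 0.0286, adjusted 0.0381). Kept regions of like rank held a peak in 68.0 ± 2.67% of cases in DEX_DMSO and 69.7 ± 5.57% in DMSO, which overlap. The gap between members and kept regions was 12.8 points wider with DEX, at -18.7 in DEX_DMSO and -5.96 in DMSO (exact permutation p = 0.0286, adjusted 0.0381), a test added after the data were seen. With an equal number of best peaks per library the difference in share was -3.53 points and that in the gap -4.56 points. DEX_DMSO and DMSO also serve as the controls of the 2 inhibitor comparisons.

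Single members followed in both directions. Fewer DEX_DMSO than DMSO libraries held 107 members (44.4%) and more held 36 (14.9%), against 32.3% and 29.6% of kept regions of like rank. All 4 DMSO and no DEX_DMSO libraries held 9 members (3.73%), where 0.335% of all regions, 0.39% of those held by all 6 siCtl libraries and 0.829% of kept regions of like rank met this pattern. These 9 lay inside BNC2, CAMK4 (a calmodulin kinase), ME1 (malic enzyme), CAST (the calpain inhibitor calpastatin) and TMEM62, and near LIFR (the receptor of LIF), OXCT1, EFNA5 and LRFN5. The BNC2 region had no peak in DEX_DMSO, against pileups of 12, 12, 14 and 20 in DMSO, and after 2 h in siCtl its pileups were 10, 10 and 11 with DEX, against 17, 24 and 29 with vehicle. Of the 9 regions, 3 (in BNC2 and CAMK4 and near EFNA5) had every siCtl pileup with DEX at 2 h below every one with vehicle, and in the other 6 the values overlapped; the rule used these libraries. The opposite pattern was met by 4 members, inside PRUNE2 and near NPIPB11, AUTS2 and LOC124900844, and NPIPB11 belongs to a family of near-identical copies whose reads cannot be placed with certainty. The share of other regions with this opposite pattern is not given here. All 13 regions are named after their values were seen.

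The members varied most with peak strength. Among the 80 strongest, with ranks of 25.2% to 58.9%, 12.2 ± 9.76% held a peak with siBRG1_siBRM and 88.1 ± 6.50% with siCtl_only. Among the 81 weakest, with ranks of 71.9% to 89.8%, the shares were 2.16 ± 1.55% and 37.0 ± 7.48%, and for the 80 between them 4.06 ± 5.72% and 58.1 ± 7.40% (SD, n = 4 libraries each). The same order held for the inhibitor, with 10.6 ± 3.15% in BRM014 and 85.0 ± 2.70% in DMSO for the strongest, and 2.16 ± 1.18% and 41.4 ± 11.5% for the weakest. So control libraries missed many weak members, and treated libraries missed most members of every strength.

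By position the shares were as follows. Members inside a protein-coding gene held a peak in 6.38 ± 5.42% of cases with siBRG1_siBRM and 61.5 ± 5.09% with siCtl_only, members up to 50 kb outside in 4.25 ± 2.37% and 60.8 ± 5.84%, and members over 50 kb outside in 6.94 ± 7.61% and 60.6 ± 7.83%. In the inhibitor experiment the shares in BRM014 and DMSO were 5.87 ± 2.93% and 61.7 ± 7.48% inside a gene, 2.36 ± 2.37% and 62.3 ± 5.97% up to 50 kb outside, and 7.22 ± 1.92% and 66.7 ± 5.21% further away. In DEX_DMSO they were 45.9 ± 4.41%, 56.6 ± 6.54% and 48.6 ± 4.19% (SD, n = 4 libraries each), so the class up to 50 kb outside was the highest there. Differences between the classes were not tested. At least 1 of the 8 siCtl_only and DMSO libraries held 225 of the members, and all 8 held 59. None of the 24 libraries of the other experiments held 8 members, which ranked 155 or lower of 241. The same counts over other regions are not given here. All 4 siCtl_only libraries held 34.9% of the members and 25.1% of kept regions of like rank. All 4 DMSO libraries held 40.2% and 38.7%. The 209 regions just outside the rule, held by 1 siGATA6 library, were close to the members, with shares of 4.31 ± 2.95% in siBRG1_siBRM and 53.3 ± 7.21% in siCtl_only.

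The members lay near genes less often than kept regions did. Inside a protein-coding gene were 98 (40.7%), up to 50 kb outside one 53 (22.0%), and further away 90 (37.3%), among them 69 at over 100 kb. Of kept regions of like rank 55.4%, 24.5% and 20.1% fell into these classes. Within 1 kb of either end of a protein-coding or long non-coding RNA gene lay 12 members (4.98%), against 20.7% of the kept regions of like rank and 28.2% of all regions held by the 6 siCtl libraries. The median distance to the nearest gene end was 24.7 kb for the members and 9.52 kb for kept regions of like rank. These are descriptions without a test, since regions are not replicates. The regions just outside the rule had similar figures, with 48.8% inside a gene and 5.26% within 1 kb of a gene end.

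**Figure D5:**
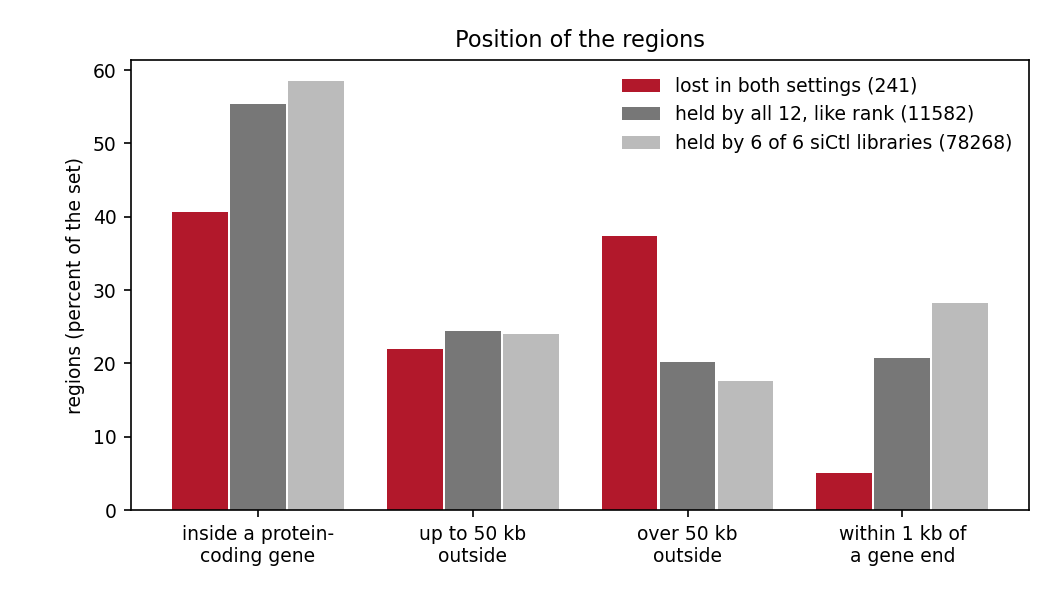
Percent of each set of regions (y axis) by position relative to protein-coding genes, and within 1 kb of an end of a protein-coding or long non-coding RNA gene (x axis), for the 241 members (red), 11582 kept regions of like rank (dark grey) and 78268 regions held by all 6 siCtl libraries (light grey). Members lie over 50 kb from a gene in 37.3% of cases, against 20.1% and 17.6%, and within 1 kb of a gene end in 4.98%, against 20.7% and 28.2%.

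By chromosome, 27 members (11.2%) were on chromosome 5, which has 6.08% of the regions held by all 6 siCtl libraries, and 1 (0.415%) on chromosome 19, which has 4.22%. Members were mostly scattered. Only 5 pairs lay within 100 kb of each other: 1 pair 0.112 kb apart inside IMMP2L, a subunit of a mitochondrial peptidase, 1 pair each near PRR16, EFNA5 and ARID5B, and the keratin pair described above. Both regions of the IMMP2L pair had no peak in any siBRG1_siBRM or BRM014 library, against 4 and 2 siCtl_only libraries and 4 and 2 DMSO libraries, and since they are almost adjacent they should not be read as independent.

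Of the 18882 protein-coding genes with a region held by all 6 siCtl libraries inside or within 50 kb, 235 (1.24%) had a member there. Besides KRT35, KRT36 and IMMP2L, the genes with 2 members were INPP4B, a phosphoinositide phosphatase, and the read-through gene ZNF664-RFLNA. The members inside INPP4B were weak, with pileups of 5 to 11 in the siCtl libraries, and no siBRG1_siBRM or BRM014 library held either.

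GATA6 had 28 regions inside or within 50 kb, and none was a member. The closest to the rule was chr18:22206957-22207353, held by 0 of 3 siGATA6 and 3 of 3 siCtl libraries in vehicle and by 1 of 3 siGATA6 and 3 of 3 siCtl libraries with DEX. Of 19 GATA factors and cofactors with a held region, 1 had a member, LMCD1, a LIM protein known to bind GATA6 and restrain it. That region, at chr3:8597588-8597753, was weak, with pileups of 6, 8 and 11 in siCtl with DEX and of 8, 13 and 17 with vehicle. None of 18 endoderm and foregut factors had a member.

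Of 29 luminal epithelial genes, KRT19 alone had one, and of 20 basal mammary genes EGFR and KRT15. The region 36.0 kb from EGFR, the receptor of epidermal growth factor, at chr7:55247638-55247928, had pileups of 15, 6 and 17 in siCtl with DEX and 16, 15 and 23 with vehicle. No BRM014 library held it, against 6, 13, 11 and 9 in DMSO, and no siBRG1_siBRM library did, against 12 and 15 in 2 of 4 siCtl_only libraries. Of 42 mesenchymal and matrix genes, FBN2 (a fibrillin) and THBS2 (a thrombospondin) had a member. Of 15 hyaluronan genes none had one within 50 kb, as the region near HAS2 lies beyond that distance.

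YAP and TEAD targets had a member at 2 of 25 genes, CRIM1, a membrane protein that binds bone morphogenetic proteins, and NT5E, the ecto-nucleotidase CD73. The region inside CRIM1, chr2:36451538-36451823, was held by 0 of 4 siBRG1_siBRM libraries, against pileups of 9, 9, 8 and 10 in siCtl_only. NF-kB and cytokine genes had one at 2 of 26, CXCL5, a neutrophil chemokine, and LIF, a cytokine of the interleukin 6 family. The region 37.7 kb from LIF, inside HORMAD2 at chr22:30202520-30202739, was the only list region to keep a peak in siBRG1_siBRM, at pileups of 12 and 13 in 2 libraries, against 30, 34, 26 and 24 in siCtl_only. It had none with BRM014, against 23, 32, 29 and 37 in DMSO.

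Of 25 glucocorticoid receptor targets 1 had a member, BCL6, a transcriptional repressor, and of 30 cell cycle genes 1, CCNB1, a mitotic cyclin. No AP-1 factor of 16, no SWI/SNF subunit of 28 and no leukocyte, endothelial or neural marker of 11, 11 and 10 had one. These are counts of 0 to 2 per list, beside 1.24% of all protein-coding genes, and no list was tested. With 1 exception, the region near LIF, the list regions had no peak in any siBRG1_siBRM library, as had 202 of the 241 members.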

How the data were processed

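Peak lists of 36 ATAC-seq libraries were used, 1 per library and so called by the authors without pooling replicates. The tools were MACS2, HOMER, SAMtools and bcl2fastq, with build GRCh38 (hg38), per the submitters' processing notes, and how reads were aligned, shifted and filtered for duplicates is not given in the sources used here. The deposited values per peak are the authors' score, the fold (a ratio of summit to local background), -log10 p and -log10 q, and the summit offset. No read counts were used, so depth is known only indirectly. Pileup and background were recovered from the deposited fold and p in a Poisson model, in 3000 weak peaks per library to within 0.002, and for every member. They are not scaled between libraries.

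Groups came from sample titles. Peaks were merged where they shared at least 1 bp, and presence was compared as described in the report, with two-sided exact permutation tests over libraries (70 arrangements of 4 against 4) and Benjamini-Hochberg adjustment over 8 tests. The tests were checked on simulated data. Gene positions came from RefSeq (GRCh38.p14). No 2 libraries had identical peak lists. Correlations between same-numbered libraries were weak (-0.0376 to 0.0882), so they were not treated as pairs. The same-numbered control was still the best match for 3 of 3 libraries in both siGATA6 comparisons. It was so for 3 of 4 in DEX_DMSO against DMSO. The members, the 15 gene lists and the rule for naming were chosen with earlier results of these data known. Named regions are the 12 of best mean rank, those within 50 kb of a list gene, the 6 of best rank among those lost with siBRG1_siBRM and up to 6 held by all 8 libraries of that experiment, genes with 2 or more members, and GATA6. Since no genome sequence was used here, regions were not searched for motifs as planned. Python 3.11.15, NumPy 2.4.6, pandas 2.3.3 and SciPy 1.17.1 were used. MDA-MB-231, named in the series design, was not analysed here.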

Additional observations from a re-analysis of the deposited data

Results flagged for a closer look

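In percentage points, the effect of DEX on the share of members holding a peak differed between inhibitor and solvent. It was -1.66 percentage points under BRM014 (3.94% in DEX_BRM014 and 5.60% in BRM014) and -14.4 points in DMSO (49.3% in DEX_DMSO and 63.7% in DMSO), a difference of 12.8 points (permutation of residuals in 100000 draws, two-sided p = 0.00426, n = 4 libraries per group). The test was added after the data were seen. Shares under BRM014 were near 0, and a share of 5.60% cannot fall by 14.4 points. In points the 2 effects could therefore not be alike, and no conclusion is drawn from the test. It also pooled residuals of groups with unlike SDs, such as 1.53 in DEX_BRM014 and 5.93 in DMSO. Among 12 sets of 4 libraries no library stood far enough from the others to be singled out, a check with little power at 4 values. For the members, siBRG1_siBRM replicate 1 held 14.1%, against 5.39%, 1.66% and 3.32% in the rest of its group.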

How the results depend on the processing

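The number of members was 241, and 253 with a -log10 q of at least 5, 251 with an equal number of best peaks per library and 285 with an overlap of at least 50% of the region; 112, 203 and 114 of the 241 were found again. Leaving out 1 library gave 254 to 309, since fewer libraries then had to meet the rule. The 4 differences in share kept their direction and side of the threshold under these 3 settings. They were -40.2, -5.50 and -35.4 points for siBRG1_siBRM (-54.9 as reported), -39.8, -5.19 and -38.9 for BRM014, -26.0, -1.87 and -23.1 for DEX_BRM014, and -14.6, -3.53 and -15.9 for DEX. With 1 library left out they ranged from -57.5 to -53.4, -60.2 to -56.1, -47.2 to -44.3 and -16.6 to -12.4, where the smallest possible p, 0.0571, lies above the threshold. With the replicate number as a block they were -54.9, -58.1, -45.3 and -14.4 (exact permutation p = 0.125, the smallest for 4 pairs).

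The gap to kept regions was less firm. With equal numbers of best peaks it was wider than the members' own difference in every comparison, so the kept regions' share was higher in the treated group. For siBRG1_siBRM it was -14.6 in the block, -17.5 to -13.5 with 1 library left out, and -23.0 against all regions held by 12 libraries. For BRM014 it passed with equal numbers (-14.0), 50% overlap (-9.67) and all kept regions (-24.2), but not with a -log10 q of at least 5 (-7.79), and was -13.6 to -8.57 with 1 library left out. For DEX_BRM014 it reversed to 4.94 with a -log10 q of at least 5 and 4.22 with 50% overlap (exact permutation p = 0.143 and 0.0857), passed with equal numbers (-10.5) and all kept regions (-13.5), and was -3.05 to -0.497 with 1 library left out; the cause was not tested. For DEX it was -4.56 with equal numbers, -12.8 in the block and -13.8 to -11.5 with 1 library left out. Of the members 60 were lost with siBRG1_siBRM, 38 with a -log10 q of at least 5, and 60 to 75 with 1 library left out. Genes near a member numbered 235 within 50 kb, 120 within 10 kb and 365 within 100 kb. The planned motif windows of 200 and 400 bp were not run. The pileup of a missing peak is not known, and the shallower experiments missed many weak members in their controls too.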
